A study of Mus musculus with 16 samples.

Results

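The genes described here are 8 subunits of the voltage-gated potassium channels that end the cardiac action potential. They were taken by name, as the transient outward and delayed rectifier subunits, from a table of 16118 genes, and all 8 are in it. They are Kcnh2, Kcnq1 and Kcne1 of the delayed rectifiers, Kcnd2, Kcnd3 and Kcnip2 of the fast transient outward current, Kcna4 of the slow transient outward current and Kcna5 of the ultrarapid current. Polyadenylated RNA of atria and ventricles from 8 adult male mice, littermates per the labels, was sequenced in 16 libraries, 4 in each of 4 groups. The groups were idKO atrium, control atrium, idKO ventricle and control ventricle.

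All 8 mice were homozygous for floxed Meis1 and Meis2, which encode homeodomain transcription factors (Meis1flox/flox; Meis2flox/flox), and hearts were collected 2 weeks after tamoxifen. The 4 idKO mice also carried alpha-MHC-MerCreMer tg/wt, a Cre recombinase that tamoxifen activates and that the cardiomyocyte promoter of alpha myosin heavy chain drives. The 4 control mice were alpha-MHC-MerCreMer wt/wt, so no group carried the Cre with unfloxed alleles, and an effect of the transgene cannot be told apart from one of the deletion. The animals' age in weeks is not given in the labels. Other cells of the heart are not the intended site of deletion, and in whole chambers fewer cells of a type and less RNA per cell cannot be told apart.

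As background, a cardiomyocyte repolarises when potassium leaves through channels that open on depolarisation. The pore-forming proteins assemble as tetramers, and smaller partners set how many reach the membrane and how fast they open and close. The transient outward and ultrarapid currents dominate repolarisation of the adult mouse ventricle, whereas the delayed rectifiers of Kcnh2 and Kcnq1 are prominent in larger mammals, and human KCNH2, KCNQ1 and KCNE1 are long QT syndrome genes.

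Libraries held 13.1 to 21.8 M (mega) recovered reads in genes. Values below are normalised read counts (counts-per-million of effective reads, CPM), as the authors scaled them, and differences are log2 fold changes of value + 1, which understate the change of low genes. The effective library size was on average 0.687 of the reads in idKO ventricles, 0.639 in control ventricles, 0.958 in idKO atria and 0.947 in control atria. Meis2 measured 7.78 to 9.66 in idKO ventricles and 22.4 to 32.6 in control ventricles (limma adjusted p = 2.0e-05), against 15.3 to 19.0 in idKO atria and 18.7 to 22.1 in control atria (limma adjusted p = 0.966). Meis1 did not pass in either chamber, and since the labels do not name the floxed exons, these gene totals do not measure the deletion. Esr1, part of which is in MerCreMer, measured 98.7 to 322 in idKO atria and 4.06 to 6.17 in control atria, and 2292 to 3641 in idKO ventricles and 0.318 to 1.84 in control ventricles. The log2 fold change of Esr1 was 4.84 in atria and 10.66 in ventricles, with an interaction of -5.82 ± 0.37 SE (limma adjusted p = 8.2e-08), and the part of this in the atrial results was not tested. The chambers matched their labels: Myl7 and Sln, atrial muscle genes, were at least 4526 and 1552 in atria and at most 14.4 and 4.88 in ventricles, while Myl2, a ventricular light chain, was at least 6769 in ventricles and at most 111 in atria. Myh7, a slow myosin heavy chain, did not separate them, at 38.3 to 1472 in atria and 335 to 2832 in ventricles.

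In ventricles, Kcnh2 and Kcnip2 fell in idKO mice, to 54.6% and 68.8% of the control mean, and the other 6 subunits did not pass the test. Kcnh2 encodes the pore of the rapid delayed rectifier (ERG1), and Kcnip2 encodes KChIP2, the calcium-binding partner that brings Kv4 pores to the membrane. Thus 0 of 8 members were called higher and 2 were called lower (limma adjusted p under 0.05 over 13144 genes), against 0.533% of all tested genes called higher and 1.50% called lower. The median log2 fold change of the 8 members was 0.00 and that of all tested genes was -0.01. Without 1 library at a time 2 or 3 members were called, and limma without a trended prior called 1.

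Kcnh2 (ENSMUSG00000038319; GRCm38 chromosome 5, 24319589 to 24351604, minus strand) measured 84.7, 66.2, 56.7 and 68.6 in the 4 idKO ventricles, against 114, 118, 128 and 147 in the 4 control ventricles. The highest idKO library lay below the lowest control library, so the groups did not overlap. The means were 69.1 ± 11.6 in idKO ventricles and 126.6 ± 14.9 in control ventricles (SD, n = 4 each), a log2 fold change of -0.87 ± 0.11 SE (limma adjusted p = 8.3e-04). Over 17 other settings the log2 fold change stayed between -0.97 and -0.77, with adjusted p from 1.0e-10 to 0.0239 in limma, edgeR or DESeq2.

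Kcnip2 (ENSMUSG00000025221; chromosome 19, 45791839 to 45816061, minus strand) measured 173, 153, 185 and 223 in the 4 idKO ventricles, against 263, 286, 249 and 269.9 in the 4 control ventricles. Here too every idKO library was below every control library. Means of 184 ± 29.5 in idKO ventricles and 267 ± 15.2 in control ventricles gave a log2 fold change of -0.55 ± 0.09 SE (SD, n = 4 each; limma adjusted p = 0.0087). The call was lost without the trended prior (limma adjusted p = 0.082) and held in the other 16 settings tried. Kcnh2 and Kcnip2 were the members with no overlap and lower values in idKO ventricles, a pattern found in 5.81% of all tested genes.

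For each member in the RefSeq promoter table (GRCm38.p6), the 250 bases before its start there were read for TGACAG, a core bound by MEIS proteins. The windows of Kcnh2 and Kcnip2, the members called lower in ventricles, are printed here. The sequences run 5′ to 3′ on the gene's strand, with TGACAG in capitals. The Kcnh2 window, chr5:24329592-24329841 on the minus strand, ends next to the start of the shorter of its protein-coding GENCODE transcripts at 24329591, while the longer transcript starts at 24351604. The Kcnip2 window is chr19:45816064-45816313 on the minus strand, and the outermost of its GENCODE transcripts starts at 45816061.

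Kcnh2: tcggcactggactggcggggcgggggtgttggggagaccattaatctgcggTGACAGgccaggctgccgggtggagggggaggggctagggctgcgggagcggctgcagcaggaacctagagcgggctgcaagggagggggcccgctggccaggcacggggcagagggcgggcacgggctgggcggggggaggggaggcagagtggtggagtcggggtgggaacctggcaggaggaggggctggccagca
Kcnip2: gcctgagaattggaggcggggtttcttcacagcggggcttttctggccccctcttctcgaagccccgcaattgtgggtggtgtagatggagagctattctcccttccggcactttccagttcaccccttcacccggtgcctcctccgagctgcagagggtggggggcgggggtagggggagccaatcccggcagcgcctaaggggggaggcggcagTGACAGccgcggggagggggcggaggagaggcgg

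The first base of TGACAG lies 199 bases before the start in Kcnh2 and 34 bases before it in Kcnip2. Of the 8 members, 6 are in the promoter table (Kcnq1 and Kcne1 are not), and 3 of these 6 windows hold TGACAG or its reverse complement, the third being that of Kcna4, 41 bases before the start. Of 32851 windows of the same length, 15.9% hold it. No other motif was searched. The windows are rich in G and C, at 73.6% for Kcnh2 and 66.8% for Kcnip2, against a median of 52.4% over all windows. Kcnd2, Kcnd3 and Kcna5 had no match in these 250 bases, and a match says only that the letters are there. The bases just after the start were found in a GENCODE transcript of the gene for Kcnh2 only. They were not found for Kcnd2, Kcnd3, Kcnip2, Kcna4 and Kcna5, so windows and distances there rest on the promoter table's own start.

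**Figure D1:**
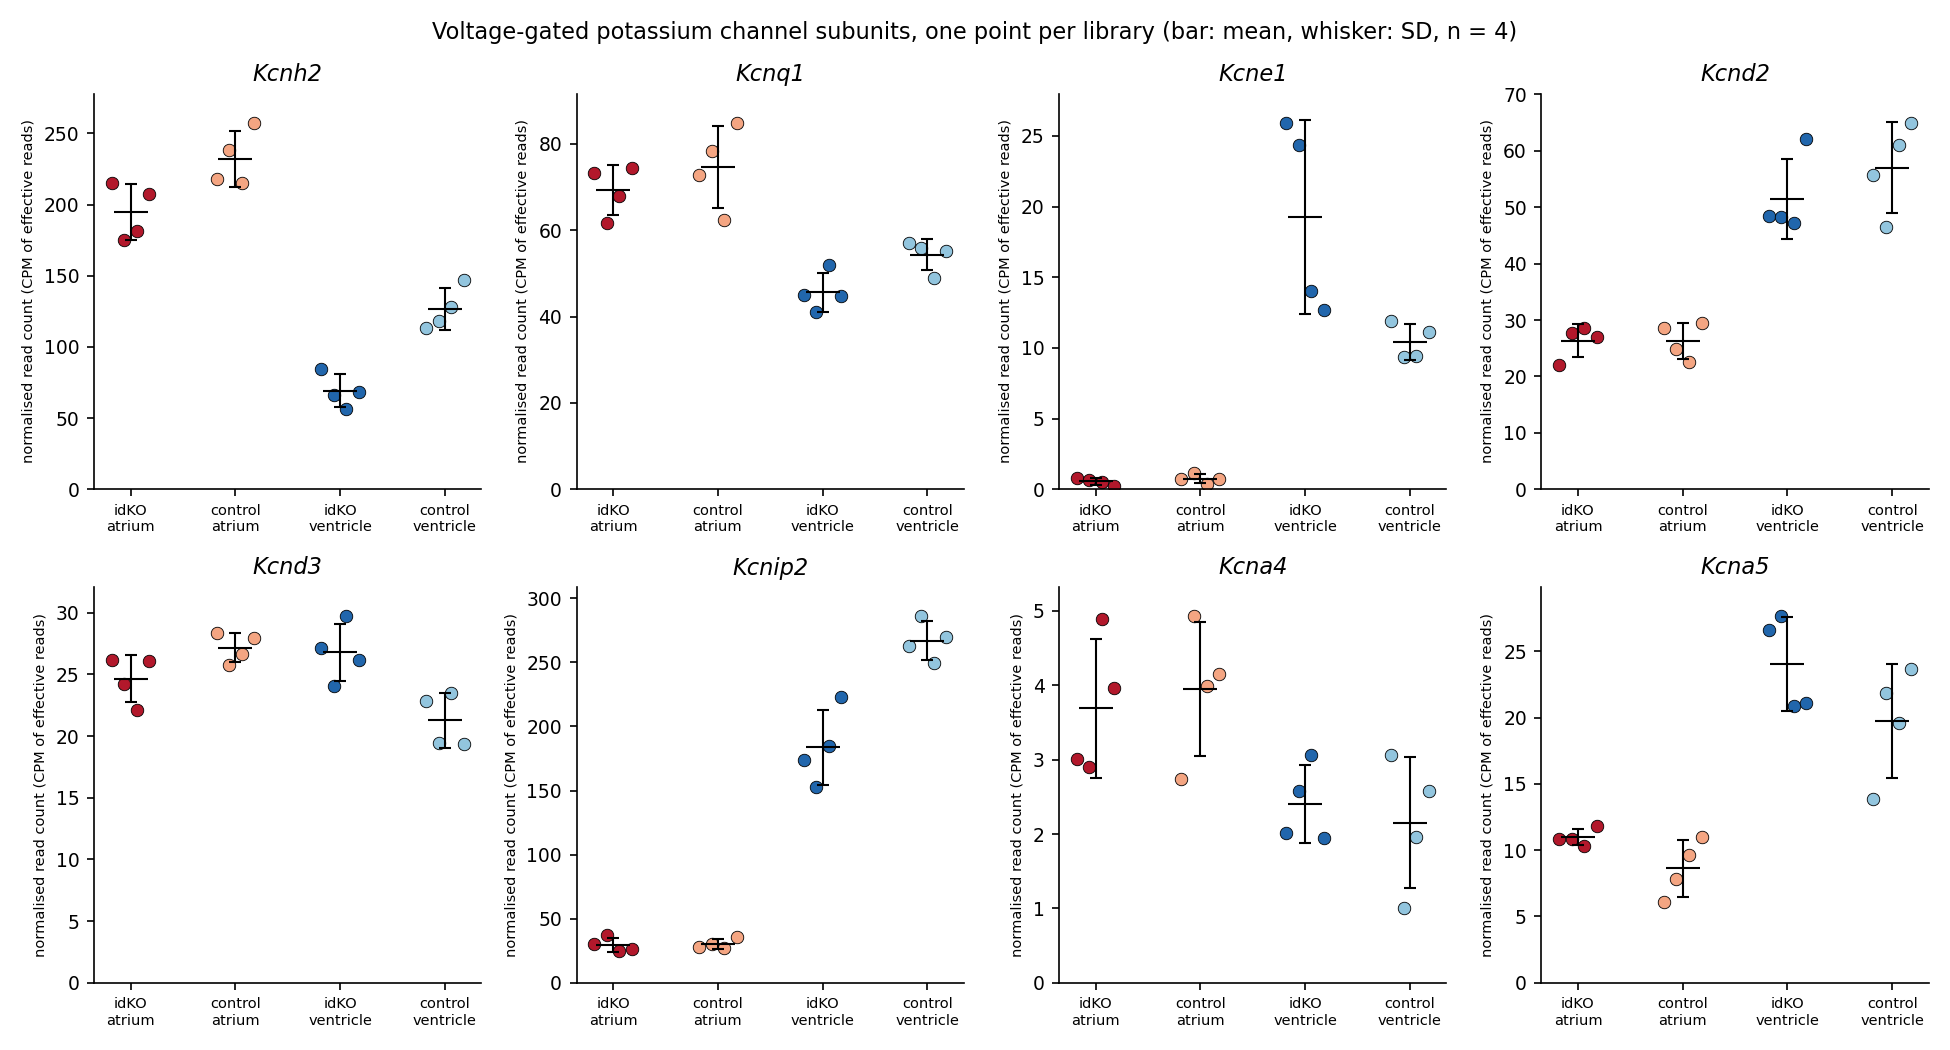
Normalised read count in CPM of effective reads (y axis, from 0) of the 8 subunits in idKO atria, control atria, idKO ventricles and control ventricles; points are libraries, bars are means and whiskers are SD (n = 4). Kcnh2 and Kcnip2 show idKO ventricles below every control ventricle, and Kcne1 is near 0 in all atria.

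The subunits of the slow delayed rectifier did not pass in ventricles, although Kcne1 showed no overlap between the groups. Kcne1 (ENSMUSG00000039639; chromosome 16, 92345982 to 92359468, minus strand) encodes minK, the single-pass subunit that slows the Kcnq1 channel into the slow delayed rectifier. It measured 25.9, 24.3, 14.0 and 12.7 in idKO ventricles, against 11.9, 9.33, 9.41 and 11.1 in control ventricles. All 4 idKO libraries were above all 4 controls, by a wide margin in 2 of them and a narrow one in the other 2. The means were 19.2 ± 6.85 in idKO ventricles and 10.4 ± 1.27 in control ventricles (SD, n = 4 each), 184% of the control mean, but the log2 fold change of 0.77 ± 0.20 SE did not pass (limma adjusted p = 0.077). DESeq2 on the recovered reads called it (0.90, DESeq2 adjusted p = 0.0028), edgeR did not (0.90, edgeR adjusted p = 0.061), and it passed in limma without idKO replicate 4 (0.93, limma adjusted p = 0.020).

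Kcnq1 (ENSMUSG00000009545; chromosome 7, 143106362 to 143427042, plus strand), the pore of the slow delayed rectifier, measured 44.9, 40.9, 51.9 and 44.7 in idKO ventricles and 57.1, 55.9, 49.0 and 55.3 in control ventricles. The groups overlapped in 1 library of each, and the log2 fold change of -0.25 ± 0.08 SE did not pass (limma adjusted p = 0.177). The non-coding Kcnq1ot1, transcribed from the opposite strand, measured 7.64 to 11.3 over the 16 libraries and shares 2.96% of the exon bases of Kcnq1. Whether the counting used strand is not given in the sources used here, so reads in that stretch cannot be assigned to one of the pair.

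Within a library, the log2 ratio of Kcne1 to Kcnq1 was -1.26 ± 0.60 in idKO ventricles and -2.28 ± 0.13 in control ventricles (SD, n = 4 each). The difference was 1.02, with no overlap, and had the smallest p that 70 assignments of 4 against 4 libraries allow (two-sided exact permutation p = 0.029, adjusted 0.057 over 6 ratio tests). A ratio taken inside a library does not depend on how that library was scaled, apart from the pseudocount of 1. The adjusted p did not pass 0.05. With the ventricular ratios, given below, all at the smallest p, it could not pass unless an atrial ratio also reached that p.

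Of the Kv4 pores of the fast transient outward current, Kcnd3 (ENSMUSG00000040896; chromosome 3, 105452330 to 105674002, plus strand) encodes Kv4.3. It measured 27.1, 24.1, 29.7 and 26.2 in idKO ventricles and 22.8, 19.4, 23.5 and 19.3 in control ventricles. Again no library overlapped, with idKO above control, yet the log2 fold change of 0.32 ± 0.10 SE did not pass (limma adjusted p = 0.137). Kcne1 and Kcnd3 were the members with no overlap and higher values in idKO ventricles, which held for 3.17% of all tested genes. An antisense gene, Kcnd3os, shares 1.72% of the exon bases of Kcnd3.

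Kcnd2 (ENSMUSG00000060882; chromosome 6, 21215503 to 21729805, plus strand) encodes Kv4.2, the other Kv4 pore. It measured 48.5, 48.2, 47.1 and 62.0 in idKO ventricles and 55.7, 46.4, 61.1 and 65.0 in control ventricles, with ranges that overlapped (log2 fold change -0.14 ± 0.11 SE, limma adjusted p = 0.600). For both ratios that involve the Kv4 pores the ventricles did not overlap, though for Kcnd2 to Kcnd3 only just. The log2 ratio of Kcnip2 to Kcnd2 plus Kcnd3 was 1.21 ± 0.11 in idKO ventricles and 1.76 ± 0.24 in control ventricles, and that of Kcnd2 to Kcnd3 was 0.91 ± 0.24 and 1.38 ± 0.22, in the same order of groups (SD, n = 4 each). The differences of -0.55 and -0.46 came with no overlap, each at the smallest possible value (exact permutation p = 0.029, adjusted 0.057). For Kcnd2 to Kcnd3 the highest idKO ventricle, at 1.2131, and the lowest control ventricle, at 1.2138, were almost level. Of 6 ratio tests, 3 in each chamber, none passed after adjustment. With the 3 ventricular ratios at the smallest p, an adjusted p under 0.05 also needed an atrial ratio at that p. The adjusted p therefore cannot decide whether the ventricular ratios changed.

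**Figure D2:**
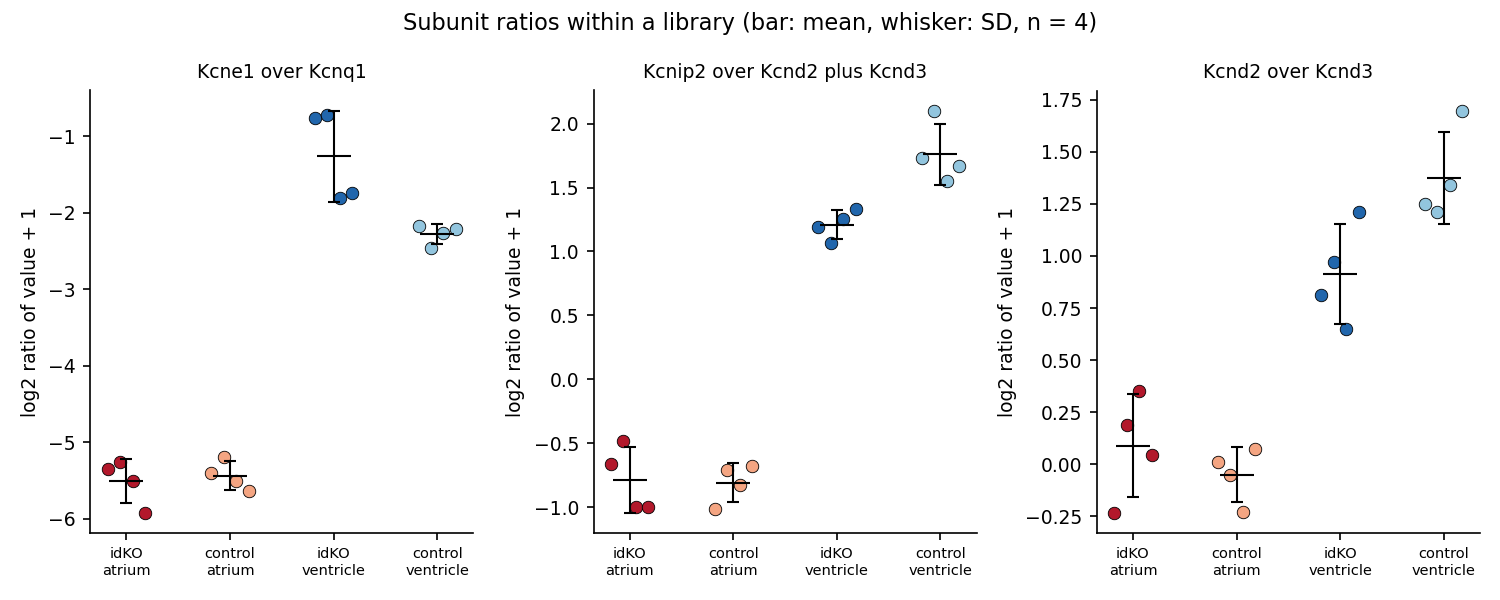
Log2 ratio of value + 1 of Kcne1 to Kcnq1, Kcnip2 to Kcnd2 plus Kcnd3, and Kcnd2 to Kcnd3 (y axes, log2) in the 4 groups; points are libraries, bars are means, whiskers are SD (n = 4). The idKO and control ventricles do not overlap in any panel, though their nearest libraries are almost level for Kcnd2 to Kcnd3. The atria overlap in all 3.

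The Kv1 pores were not called in ventricles. Kcna5 (ENSMUSG00000045534; chromosome 6, 126532551 to 126535412, minus strand), Kv1.5 of the ultrarapid current, measured 26.6, 27.6, 20.9 and 21.1 in idKO ventricles and 13.8, 21.8, 19.6 and 23.7 in control ventricles (log2 fold change 0.29 ± 0.15 SE, limma adjusted p = 0.409). Kcna4 (ENSMUSG00000042604; chromosome 2, 107290639 to 107298502, plus strand), Kv1.4 of the slow transient outward current, measured 1.95 to 3.07 in idKO ventricles and 1.01 to 3.06 in control ventricles, or 24 to 40 and 13 to 37 reads. Both pairs of ranges overlapped. For Kcna4 the 95% interval of the log2 fold change ran from -0.37 to 0.66, so changes within those bounds were not excluded.

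In atria, none of the subunits tested was called between idKO and control mice. Kcne1, with 4 to 10 reads in idKO atria and 5 to 19 in control atria, was under the filter, and 0 of the other 7 passed in limma, against 0.0207% of all tested genes called higher and 0.00% called lower. At an unadjusted p under 0.05 there was 1 member, Kcnh2, and edgeR and DESeq2 on the recovered reads called 0 members. The median log2 fold change of these 7 was -0.08, and that of all tested genes was 0.00.

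Kcnh2 measured 215, 175, 181 and 208 in idKO atria, against 218, 238, 215 and 257 in control atria. The groups did not overlap, though the highest idKO library at 215.08 and the lowest control at 215.12 were almost level. The means were 194.7 ± 19.6 in idKO atria and 232 ± 19.7 in control atria (SD, n = 4 each), 83.8% of control, and the log2 fold change was -0.26 ± 0.08 SE (limma adjusted p = 0.966, unadjusted p = 0.0088). A lower range with no overlap was found in 1.30% of tested genes in atria and a higher one in 1.52%, and no member had the second.

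Among the others, Kcna5 averaged 11.0 ± 0.60 in idKO atria and 8.65 ± 2.15 in control atria, with overlap (log2 fold change 0.34 ± 0.16 SE, limma adjusted p = 0.966). Kcnip2, which fell in ventricles, averaged 29.5 ± 5.50 in idKO atria and 30.2 ± 3.73 in control atria (SD, n = 4 each). Its 95% interval in atria ran from -0.32 to 0.23 on the log2 scale. Of the 3 ventricular muscle markers, Myl2 measured 3.54 to 111 in idKO atria and 1.46 to 29.0 in control atria and Myl3 79.5 to 175 and 91.5 to 103, in the same order of groups. Myh7 measured 38.3 to 1472 in idKO atria and 48.3 to 1404 in control atria with a log2 fold change of 1.23 ± 1.28 SE. None of the 3 was called. Their part in the atrial values of Kcnip2 and Kcne1 was not tested. Kcnd2, Kcnd3, Kcnq1 and Kcna4 had log2 fold changes of 0.0019, -0.14, -0.10 and -0.08 and overlapping groups. The subunit ratios differed between idKO and control atria by -0.07 for Kcne1 to Kcnq1, 0.02 for Kcnip2 to the Kv4 pores and 0.14 for Kcnd2 to Kcnd3, with exact permutation p = 0.743, 0.771 and 0.400 (n = 4 each). Kcne1 measured 0.24 to 0.82 in idKO atria and 0.39 to 1.16 in control atria, near or below the pseudocount of 1. The atrial ratio of Kcne1 to Kcnq1 could therefore hardly show a change of Kcne1.

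**Figure D3:**
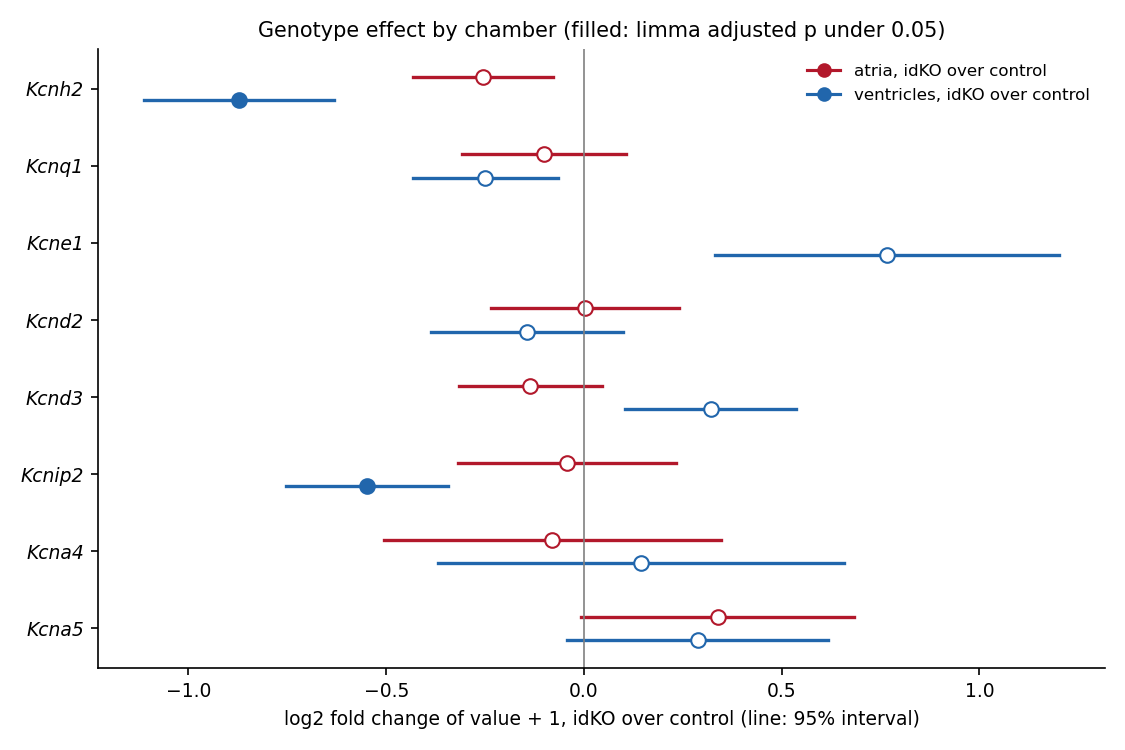
Log2 fold change of value + 1, idKO over control (x axis), of each subunit in atria (red) and ventricles (blue), with 95% intervals from limma; filled points passed an adjusted p of 0.05 and Kcne1 was not tested in atria. Only the ventricular points of Kcnh2, at -0.87, and Kcnip2, at -0.55, are filled.

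Whether the genotype effect differed between the chambers was tested directly, as the effect in atria minus the effect in ventricles, in 1 fit of all 16 libraries. In limma 0 of 8 members passed, against 0.269% of all tested genes with a positive difference and 0.0269% with a negative one. At an unadjusted p under 0.05 there were 4 members, Kcnh2, Kcne1, Kcnd3 and Kcnip2, and edgeR called 0 while DESeq2 called 1. Kcnh2 had a difference of 0.62 ± 0.15 SE (limma adjusted p = 0.140). Since each mouse gave both chambers, the fit was repeated with the mouse as a replicate block, and Kcnh2 then passed with the same difference (limma adjusted p = 0.0018), as it did in DESeq2 (0.61, DESeq2 adjusted p = 0.019). The genes called over the whole table went up to 102 with the block, against 44 without it.

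Kcnip2 had a difference of 0.51 ± 0.17 SE, Kcnd3 of -0.46 ± 0.12 and Kcne1 of -0.93 ± 0.30, none of which passed with the block or without it (limma adjusted p from 0.127 to 0.488). Kcnh2 was the only member that passed the interaction in any of the fits run, so for Kcnip2 no difference between chambers was shown.

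More of these subunits were called between chambers than between genotypes. In control mice all 8 were called between atrium and ventricle, 4 higher in atria (Kcnh2, Kcnq1, Kcnd3 and Kcna4) and 4 lower (Kcne1, Kcnip2, Kcnd2 and Kcna5), against 28.2% and 28.7% of all tested genes. In idKO mice 2 were called higher in atria (Kcnh2 and Kcnq1), 4 lower (Kcne1, Kcnip2, Kcnd2 and Kcna5) and 2 did not pass, against 26.8% and 27.1% of all tested genes. Both comparisons come from the fit of 16 libraries.

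The delayed rectifier pores were higher in atria. Kcnh2 was 2.82 times as high in atria as in ventricles of idKO mice and 1.84 times in control mice (log2 fold changes 1.49 ± 0.11 and 0.87 ± 0.11 SE, limma adjusted p = 8.0e-10 and 9.8e-07), and the atrium was higher in 8 of 8 mice. Kcnq1 averaged 69.3 ± 5.84 in idKO atria against 45.6 ± 4.57 in idKO ventricles, and 74.6 ± 9.53 in control atria against 54.3 ± 3.59 in control ventricles (SD, n = 4 each), and was also higher in the atrium of 8 of 8 mice. These ratios rest on the authors' scaling, which differed between chambers. Dividing by all recovered reads moved the median log2 fold change of all genes towards atria, from 0.02 to 0.51 in control mice. In idKO mice the median went from 0.02 to 0.44. Kcnh2 moved by a similar amount, to 1.44 in control mice and 1.96 in idKO mice.

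Kcnip2 and Kcne1, the modulatory subunits, had the largest chamber differences of the 8, both towards the ventricle. Kcnip2 was lower in atria by a log2 fold change of -2.60 ± 0.12 SE in idKO mice and -3.11 ± 0.12 in control mice (limma adjusted p = 2.0e-12 and 1.4e-13), with ventricular means 6.22 and 8.83 times the atrial ones. Kcne1 had log2 fold changes of -3.65 ± 0.21 in idKO mice and -2.72 ± 0.21 in control mice (limma adjusted p = 5.3e-11 and 2.6e-09), and its highest atrial library stood at 1.16. In the same atria Myl2 and Myl3, ventricular muscle genes, reached at most 1.64% and 2.51% of their lowest ventricular library, whereas Myh7, the third gene of that list, reached 439% of its lowest ventricular library and 113% of its ventricular mean. The part of ventricular RNA in the few Kcne1 reads of atria was not tested.

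Kcnd2 and Kcna5 were lower in the atrium of 8 of 8 mice. Kcnd2 averaged 26.4 ± 2.89 in idKO atria against 51.5 ± 7.08 in idKO ventricles, and 26.3 ± 3.22 in control atria against 57.0 ± 8.05 in control ventricles (SD, n = 4 each). Kcna5 averaged 11.0 ± 0.60 in idKO atria against 24.1 ± 3.58 in idKO ventricles, and 8.65 ± 2.15 in control atria against 19.7 ± 4.28 in control ventricles (SD, n = 4 each). Under the authors' scaling, TMM, DESeq2 size factors and plain division by all reads, Kcnh2 and Kcnq1 stayed higher in atria and Kcne1, Kcnip2, Kcnd2 and Kcna5 lower, in both genotypes.

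Kcnd3 and Kcna4 were not called between the chambers of idKO mice, and both were higher in atria of control mice. Kcnd3 averaged 24.7 ± 1.91 in idKO atria and 26.8 ± 2.33 in idKO ventricles, against 27.2 ± 1.18 in control atria and 21.3 ± 2.20 in control ventricles (SD, n = 4 each). It was higher in the atrium of 1 of 4 idKO mice and of 4 of 4 control mice. The log2 fold change, atrium over ventricle, was -0.11 ± 0.09 SE in idKO mice (limma adjusted p = 0.295) and 0.34 ± 0.09 in control mice (limma adjusted p = 0.0027). Division by all recovered reads turned the idKO value to 0.35, which was called, so the idKO result depends on the scaling. Kcna4 averaged 3.69 ± 0.93 in idKO atria against 2.40 ± 0.53 in idKO ventricles, and 3.95 ± 0.90 in control atria against 2.15 ± 0.89 in control ventricles (SD, n = 4 each). Its log2 fold change in idKO mice was 0.46 ± 0.22 SE (limma adjusted p = 0.085), and it passed there by division by all recovered reads (0.77) and without control replicate 2 (limma adjusted p = 0.048). Its call in control mice (0.68, limma adjusted p = 0.0119) was lost without control replicate 2 (0.39, limma adjusted p = 0.144).

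**Figure D4:**
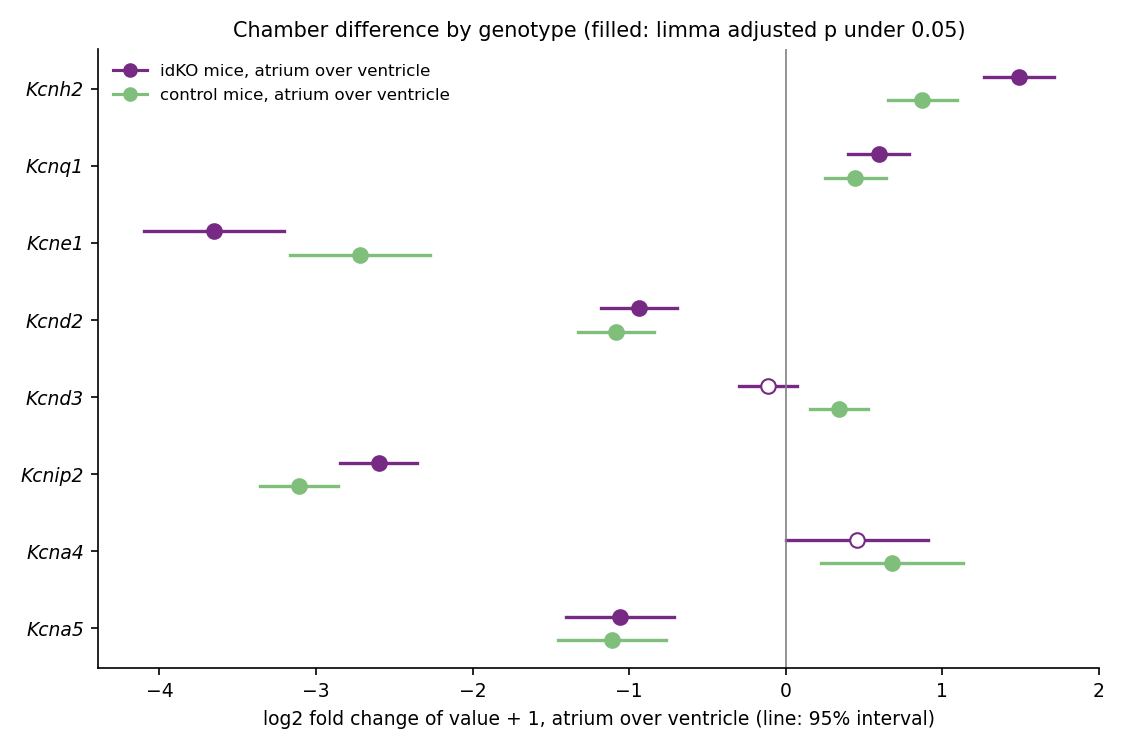
Log2 fold change of value + 1, atrium over ventricle (x axis), of each subunit in idKO mice (purple) and control mice (green), with 95% intervals from limma; filled points passed an adjusted p of 0.05. Kcnh2 and Kcnq1 lie right of 0 and Kcne1, Kcnip2, Kcnd2 and Kcna5 left of 0 in both genotypes; Kcnd3 and Kcna4 are open in idKO mice.

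Levels of different genes were compared per kb of exon. In ventricles of both genotypes the order of the means was Kcnip2, Kcnh2, Kcnq1, Kcnd2, Kcna5, Kcne1, Kcnd3 and Kcna4. Kcnip2 averaged 52.8 ± 8.50 per kb in idKO ventricles and 76.8 ± 4.37 in control ventricles, and Kcnh2 averaged 14.3 ± 2.40 per kb in idKO ventricles and 26.1 ± 3.07 in control ventricles (SD, n = 4 each). In idKO ventricles the ranges of neighbours from Kcnh2 to Kcne1 overlapped, so their order there is within the spread, whereas in control ventricles Kcnh2 at 23.4 to 30.3 per kb stood clear of Kcnq1 at 12.0 to 13.9, and of the neighbours only Kcnq1 and Kcnd2 overlapped. At the low end were Kcnd3, at 2.51 to 3.10 per kb in idKO ventricles and 2.02 to 2.45 in control ventricles, and Kcna4, at 0.40 to 0.63 and 0.21 to 0.63, in the same order of groups.

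In atria of both genotypes the order per kb was Kcnh2, Kcnq1, Kcnip2, Kcnd2, Kcna5, Kcnd3, Kcna4 and Kcne1. Kcnh2 averaged 40.2 ± 4.05 per kb in idKO atria and 47.9 ± 4.07 in control atria, and Kcnq1 averaged 16.9 ± 1.43 and 18.2 ± 2.33, in the same order of groups (SD, n = 4 each). Kcnip2, first in ventricles, was at 7.17 to 10.7 per kb in idKO atria and 7.85 to 10.2 in control atria. Of the neighbours in this order, the ranges of Kcna5 and Kcnd3 overlapped in control atria and none did in idKO atria. Kcne1 was last, at 0.076 to 0.25 per kb in idKO atria and 0.12 to 0.36 in control atria.

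**Figure D5:**
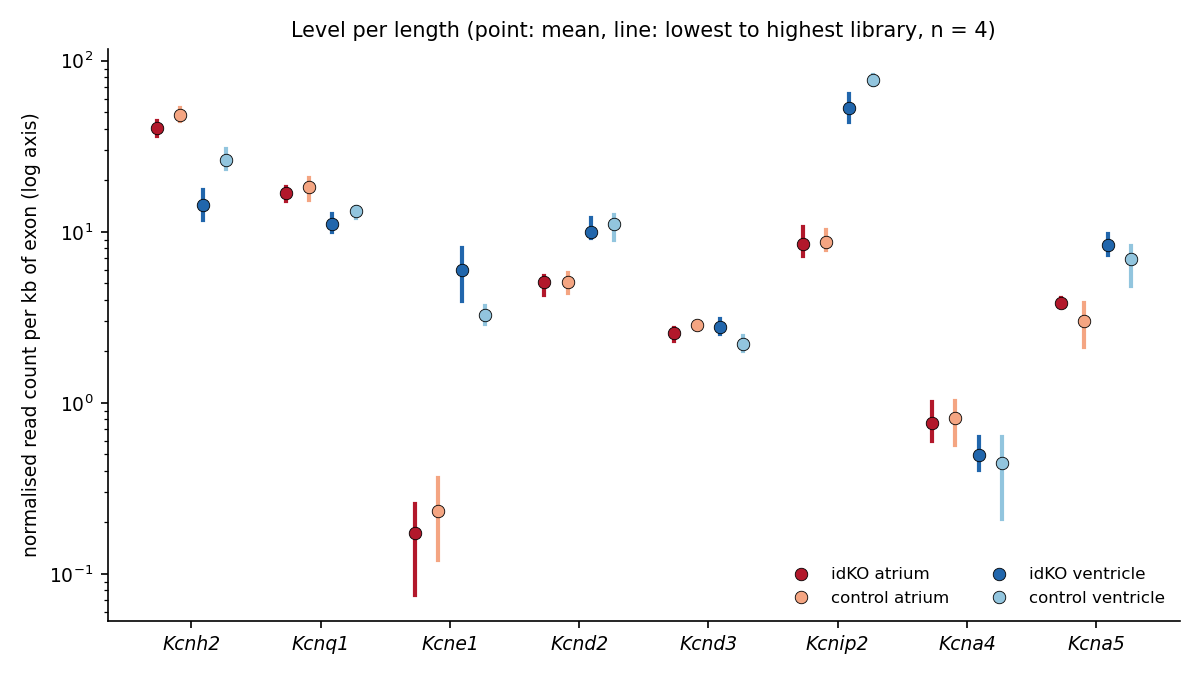
Normalised read count per kb of exon (y axis, log scale) of the 8 subunits in the 4 groups; points are means and lines run from the lowest to the highest library (n = 4). Kcnip2 leads in ventricles, Kcnh2 in atria, and Kcne1 spans the widest range between chambers.

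Beside these subunits, 46 further voltage-gated potassium channel genes and accessory subunits were listed, of which 30 are in the table. In ventricles 11 were tested, 0 rose, 2 fell and 9 did not pass, against 0.533% of all tested genes called higher and 1.50% called lower. Their median log2 fold change was -0.14, and that of all tested genes was -0.01. Kcnv2 and Kcng2, the 2 that fell, encode modulatory subunits that form no channel alone and join other pores. Kcnv2 averaged 11.0 ± 2.97 in idKO ventricles and 23.5 ± 3.19 in control ventricles (SD, n = 4 each), with a log2 fold change of -1.05 ± 0.16 SE (limma adjusted p = 0.0033). Kcng2 averaged 117 ± 12.4 in idKO ventricles and 169 ± 14.4 in control ventricles, a log2 fold change of -0.52 ± 0.08 SE (limma adjusted p = 0.0049). In atria 22 were tested and 0 were called in limma, against 0.0207% of all tested genes called higher and 0.00% called lower. At an unadjusted p under 0.05 there were 2, and DESeq2 and edgeR called 0. In control mice 13 of 22 were higher in atria, 4 were lower and 5 did not pass, against 28.2% and 28.7% of all tested genes called higher and lower. In idKO mice 14 were higher, 2 were lower and 6 did not pass, against 26.8% and 27.1%.

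Of 7 genes for proteins that bind these channels, 0 were called higher and 1 lower in ventricles, against 0.533% and 1.50% of all tested genes. Fhl2, the gene called, encodes a LIM domain protein known to bind minK. It averaged 793 ± 116 in idKO ventricles and 2206 ± 177 in control ventricles (log2 fold change -1.48 ± 0.09 SE, limma adjusted p = 1.8e-06). Akap9, Dlg1, Cav3, Actn2, Nedd4l and Flna did not pass. Of the Iroquois transcription factors, Irx4 averaged 24.9 ± 4.33 in idKO ventricles and 38.7 ± 2.87 in control ventricles and fell (log2 fold change -0.63 ± 0.11 SE, limma adjusted p = 0.0099). Irx5, the member tied to Kcnd2 repression in mice, averaged 10.8 ± 1.82 in idKO ventricles and 12.0 ± 1.21 in control ventricles and did not pass (limma adjusted p = 0.640). Irx3 averaged 40.4 ± 7.27 in idKO ventricles and 52.7 ± 6.58 in control ventricles and did not pass (log2 fold change -0.38 ± 0.12 SE, limma adjusted p = 0.138).

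Few cell type markers were called between the genotypes in ventricles, where 0.533% of all tested genes were called higher and 1.50% lower. Of 6 cardiomyocyte genes 1 fell (Ryr2) and 5 did not pass, with a summed level of 54104 to 63501 in idKO ventricles and 61378 to 68132 in control ventricles. Of 6 fibroblast genes limma called 0 (1 at an unadjusted p under 0.05, 0 by DESeq2 and 0 by edgeR), but all 6 had positive log2 fold changes, and their summed level was 1043 to 1699 in idKO ventricles and 978 to 1173 in control ventricles. Of 6 macrophage genes limma called 1 higher (Lyz2; 3 at an unadjusted p under 0.05, 2 by DESeq2 and 1 by edgeR), all 6 had positive log2 fold changes with a median of 0.24, and the list stood at a summed level of 347 to 428 in idKO ventricles and 307 to 321 in control ventricles. Neuron markers summed to 9.14 to 13.1 in idKO ventricles and 9.61 to 13.6 in control ventricles, with Th at 0 reads in every ventricle of both genotypes, Snap25 at 0 reads in every control ventricle and some idKO ventricles, and Tubb3 at 0 reads in some idKO ventricle. Stmn2, with means of 8.13 in idKO and 7.53 in control ventricles, made up most of that sum. Of the 2 neuron genes tested, Stmn2 and Dbh, limma called 0 (1 at an unadjusted p under 0.05, 0 by DESeq2 and 0 by edgeR). Dbh measured 0.57 to 2.03 in idKO ventricles and 2.90 to 3.77 in control ventricles (log2 fold change -0.74 ± 0.23 SE, limma adjusted p = 0.135). The part of these cells in the fall of Kcnh2 and Kcnip2 was not tested.

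Between chambers more of the markers were called. Of all tested genes 28.2% were higher and 28.7% lower in atria of control mice, and 26.8% and 27.1% in idKO mice. In control mice 6 of 6 neuron genes, 5 of 5 Schwann cell genes and 6 of 6 fibroblast genes were higher in atria, as they were in idKO mice. The neuron list summed to 52.9 to 74.5 in idKO atria against 9.14 to 13.1 in idKO ventricles, and to 60.1 to 87.6 in control atria against 9.61 to 13.6 in control ventricles. Of 6 macrophage genes 1 was higher in atria of idKO mice and 3 in control mice. In each genotype 2 of 6 endothelial genes were higher and 3 lower in atria, and 2 of 6 smooth muscle and pericyte genes were higher and 1 lower. These counts rest on the authors' scaling. After division by all recovered reads, 3 endothelial genes in idKO mice and 4 in control mice were higher, and 0 were lower. All 6 macrophage genes were then higher in both genotypes, and 5 smooth muscle and pericyte genes were higher and 1 lower. Of 6 cardiomyocyte genes 4 were lower in atria of both genotypes, Tnnt2 (log2 fold change -0.81 in idKO and -0.79 in control mice), Tnni3 (-0.64 and -0.79), Actn2 (-0.68 and -0.66) and Ttn (-0.34 and -0.26), and Ryr2 was higher in atria of idKO mice. Their summed level was 45405 to 52729 in idKO atria against 54104 to 63501 in idKO ventricles, and 46731 to 55956 in control atria against 61378 to 68132 in control ventricles. By division by all recovered reads, 2 of the 6 were called higher and 3 lower in idKO mice, and 3 higher and 2 lower in control mice. The part of these cells in the higher atrial levels of Kcna4, Kcnh2 and other subunits, and in the lower ones of Kcnip2, Kcne1, Kcnd2 and Kcna5, was not tested.

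Genes whose log2 values were most like each subunit over the 16 libraries were ranked by Pearson's r among 13175 genes, as a description. The points share the chamber difference, so genes that differ between atria and ventricles come out alike. Corin, a protease that activates natriuretic peptides, was most like Kcnh2 (r = 0.983), ahead of Mtus2 (0.967) and Tshz1 (0.966). Fam210a, a mitochondrial membrane protein, was most like Kcnip2 (0.996), Ushbp1 most like Kcne1 (0.982), Usp47, a deubiquitinase, most like Kcnd2 (0.981), and Surf4, an endoplasmic reticulum cargo receptor, most like Kcnq1 (0.955). For Kcna5 the closest were Tcim (0.963) and Gpihbp1 (0.962), a capillary endothelial protein. The closest gene to Kcnd3 was Slc22a15 (0.817) and to Kcna4, the subunit with few reads, Brip1os (0.864).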

How the data were processed

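RNA-seq of 16 libraries was analysed from the authors' deposited table of 16118 genes. Per the submitters' processing notes, cutadapt and RSEM 1.3.1 were used with GRCm38; neither the scaling tool nor the strand setting of the counting is given there. The deposited values are a normalised signal. Taking 0.5 to be added to the reads before scaling by an effective library size (CPM scale), 100% of them led back to whole reads, within 0.01. Since they are scaled, the design's test for normalised values was used in place of that for raw counts.

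Genes were tested where at least 4 libraries of a fit reached 1 CPM of the summed values. Values were tested as log2(value + 1) in limma 3.58.1 (R 4.3.3), two-sided, under a trended prior, with Benjamini-Hochberg adjustment over all genes tested. Genotype was fitted in each chamber alone, and the chamber differences and their interaction with genotype in all 16 libraries. Alternatives were other pseudocounts, no filter, no trended prior, TMM scaling, a joint fit, DESeq2 1.42.0 and edgeR 4.0.16 on the recovered reads, and each library left out; division by all recovered reads was added after seeing the data. The steps were tested on simulated data. The mouse numbers in the labels pair atrium and ventricle of 1 animal: deviations of its chambers from their group means correlated at 0.188 to 0.325 over 14871 genes, and 8 of 8 mice correlated best with themselves. No mouse is in both genotypes, so genotype was not paired. Exact permutation tests used 70 assignments.

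All 8 members are named, and other genes only where called in their list, most like a member, or a stated check. Naming Irx3, Irx5, the uncalled channel partners and single markers was a choice made with their values known. The members, lists and tests were chosen with earlier results of these data known. Exon bases and positions are from GENCODE vM21 on GRCm38. The value per kb divides by the merged exon length of a gene, and SD is over 4 libraries from separate mice.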

Additional observations from a re-analysis of the deposited data

Results flagged for a closer look

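Kcnd2 in idKO ventricles had 1 library, at 62.0, far from the other 3, which lay at 47.1 to 48.5. Of 44 groups of 4 libraries tested this way, 1 stood out, and chance gives about 1 in 20. The genotype effect on Kcnh2 differed between atria and ventricles, by 0.62 on the log2 scale, when the mouse was a replicate block in the fit (limma adjusted p = 0.0018); without the block the same difference did not pass (limma adjusted p = 0.140).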

How the results depend on the processing

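The falls of Kcnh2 and Kcnip2 in ventricles kept their direction under 17 alternatives each, and only Kcnip2 without the trended prior lost its call (1 member called). Over all genes, the ventricular count was 267, against 148 with no filter, 89 without the trended prior, 537 in DESeq2 and 132 to 359 without 1 library; the atrial count was 3, and 11 in DESeq2. For the interaction the count was 44, against 24 without the trended prior, 22 by plain CPM, 86 in DESeq2, 102 with the mouse as a replicate block and 19 to 39 without 1 mouse, and 1 member passed in DESeq2 and with the block. The block changed no other call among the members. Signs turned for uncalled values near 0: in atria, Kcnd2 to -0.00068 with TMM and -0.00029 in edgeR, and without 1 library Kcnd2 ranged from -0.067 to 0.081, Kcna4 from -0.21 to 0.013 and Kcnip2 from -0.15 to 0.033. In ventricles Kcna4 ranged from -0.056 to 0.28 without 1 library. In the interaction Kcna5 was -0.023 by plain CPM and -0.038 to 0.12 without 1 mouse, and Kcna4 -0.49 to 0.069. An exception was Kcnd3 between idKO chambers, which turned from -0.11, not called, to 0.35 by plain CPM, where it was called. The atrial ratios ranged, without 1 library, from -0.15 to 0.070 for Kcne1 to Kcnq1 and from -0.080 to 0.095 for Kcnip2 to the Kv4 pores. The cause was not tested. Of 722 alternative values for single genes and ratios, 691 kept direction and call. Low reads limit Kcne1 in atria and Kcna4 everywhere.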
